A study of Rattus norvegicus with 6 samples.

Results

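Transcripts of the cytosolic ribosomal proteins were compared between livers of rats given a fermented dark tea and livers of rats given water. The genes were chosen by symbol: Rpl or Rps followed by a number, or Rplp0, Rplp1, Rplp2 or Rpsa, leaving out S6 kinases and pseudogenes. The array table held 66 such genes among 9621 named genes, 39 of the large ribosomal subunit and 27 of the small subunit, each with 1 probe. All 6 samples were livers of male Sprague Dawley rats, and every rat ate a high-fat diet (60%). For 3 samples the treatment was a dark tea fermented with Eurotium cristatum number 8730, given by stomach tube for 9 weeks, and in the 3 controls it was distilled water for the same time. The labels give no age and do not say whether each sample was 1 animal, so a p-value here speaks only of sample-to-sample spread, some of it possibly technical.

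The ribosome joins a small subunit, which reads the messenger RNA, to a large subunit, which forms the peptide bonds. Each subunit is a core of ribosomal RNA dressed with ribosomal proteins, and a cell needs these proteins in matched amounts. Their messenger RNAs start with a terminal oligopyrimidine tract, a C followed by a run of C and T, through which the kinase mTOR controls their translation in response to nutrients. Liver makes plasma proteins in bulk and carries many ribosomes. Ribosomal protein genes have many processed pseudogenes, and the RefSeq table lists 908 pseudogene entries of any kind under their symbols. Related transcripts could share signal on the array, which was not tested.

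The annotated start sites of 8 members that appear in the results below are shown. Rps23, Rps3a, Rpl13, Rpl39 and Rpl3 were among the members far lower in 1 control liver. Rpl36, Rps26 and Rpl10 were among the members with the smallest p. Not every such member is shown. Each line gives 20 bases before and 20 bases from the annotated start, 5′ to 3′ on the gene's strand, from RefSeq on GRCr8. Capitals mark runs of at least 5 C or T.
Rps23, chr2:23814497-23814536, plus strand: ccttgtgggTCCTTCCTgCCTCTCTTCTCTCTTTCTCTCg
Rps3a, chr2:173827023-173827062, minus strand: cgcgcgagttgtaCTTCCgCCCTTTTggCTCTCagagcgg
Rpl13, chr19:68062494-68062533, plus strand: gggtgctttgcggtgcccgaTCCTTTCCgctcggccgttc
Rpl39, chrX:121195877-121195916, minus strand: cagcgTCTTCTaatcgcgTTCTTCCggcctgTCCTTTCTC
Rpl3, chr7:113507971-113508010, minus strand: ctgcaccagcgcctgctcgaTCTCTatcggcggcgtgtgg
Rpl36, chr9:1533760-1533799, plus strand: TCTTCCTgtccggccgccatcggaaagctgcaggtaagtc
Rps26, chr7:1643385-1643424, minus strand: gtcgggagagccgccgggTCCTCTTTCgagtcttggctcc
Rpl10, chrX:157205830-157205869, plus strand: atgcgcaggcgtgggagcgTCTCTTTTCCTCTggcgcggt

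A start window was found for 53 of the 66 members. A C at the first annotated base followed by at least 4 C or T stood in 21 of the 53, or 39.6%, against 2.63% of the 27457 genes with a window. The share was 43.8% in the large subunit and 33.3% in the small subunit. CTTTCC, searched on both strands in the 40 bases around the start, stood in 18 of the 53 members (34.0%) and in 3.51% of all genes. It can overlap a run of C and T at the start, and in Rpl13 it stood where the first annotated base was T, so the tract rule was not met there. AAGATGGC, searched on both strands in the whole 300-base window, stood in 5 members (9.43%) and in 3.44% of all genes. A window without these letters says only that they are not at the annotated start, which may lie some bases from the one used in liver.

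No ribosomal protein transcript passed the test between tea and water. With limma and Benjamini-Hochberg adjustment over 26419 probes, 0 of the 66 members had an adjusted p under 0.05, against 1 of all probes (0.00379%), and the smallest adjusted p of a member was 0.949. At an unadjusted p under 0.05, 1 member differed, Rpl36, which was lower with tea. That is 1.52% of the members, against 4.23% of all probes in either direction and 2.26% in that direction. Mean levels were higher with tea for 27 members and lower for 39, while 49.7% of all probes were higher and 50.3% lower. The median log2 fold change was -0.070 over the members and -0.0022 over all probes. In tissue, fewer cells of a type and less RNA per cell cannot be told apart.

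The medians of both subunits were below 0, and the difference between them was not tested. In the large subunit 18 genes were higher and 21 lower, and the median log2 fold change was -0.027. In the small subunit 9 were higher and 18 lower, and the median was -0.15. Log2 fold changes ran from -0.84 for Rpl36 to 1.09 for Rpl22, and 51 of the 66 were under 0.5 in size. The 95% interval lay within 1 log2 unit of 0, a 2-fold change, for 31 members. For the other 35 a 2-fold difference was not excluded by these arrays, whose number limits the precision of every value.

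**Figure D1:**
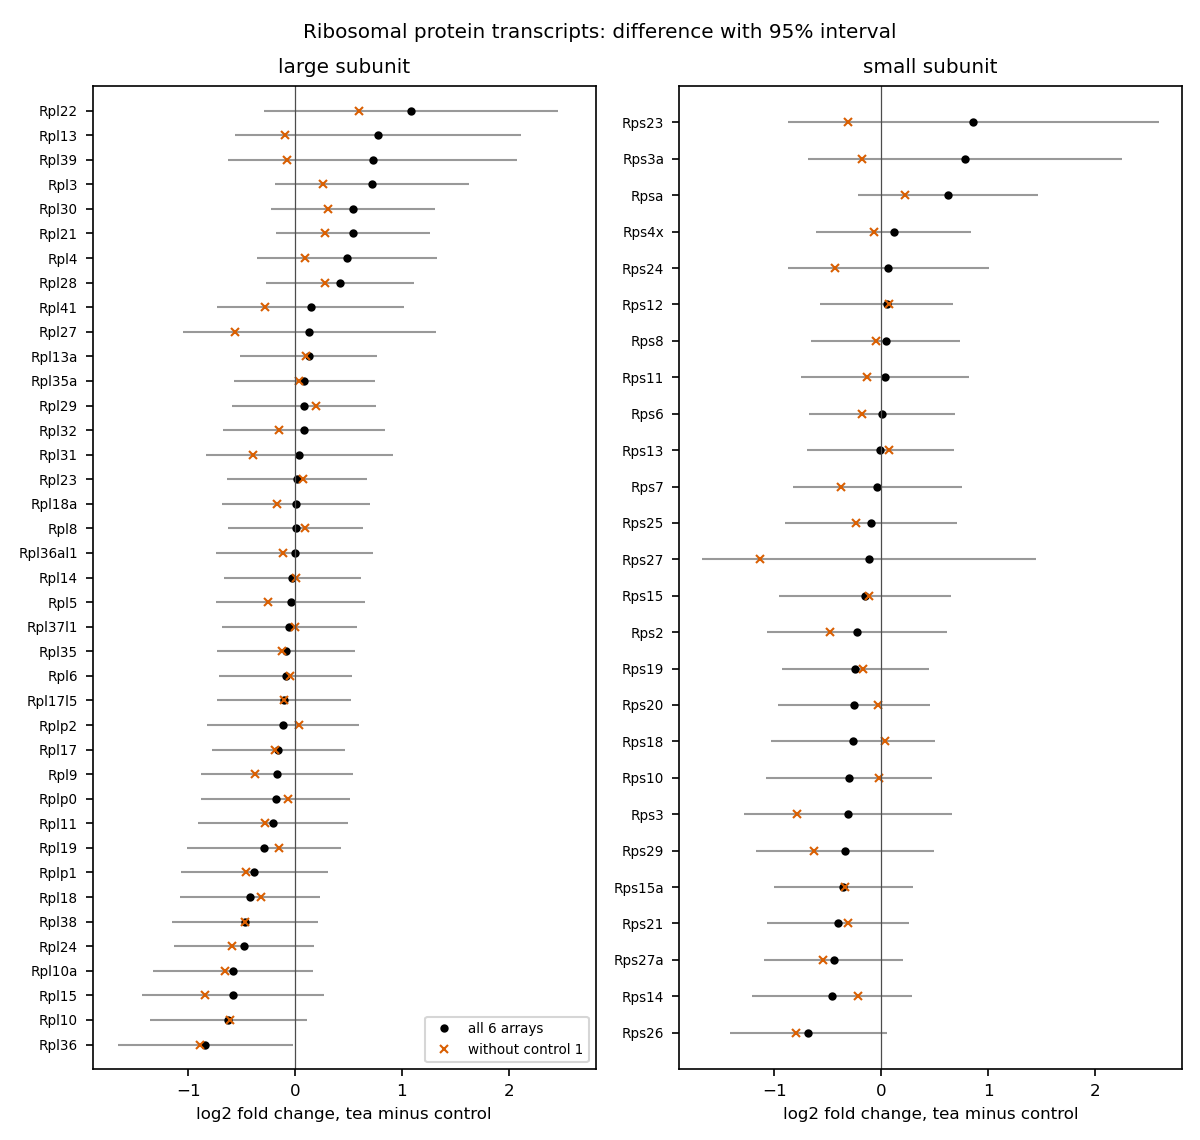
Log2 fold change of tea minus control on the x axis for 65 ribosomal protein genes (rows), large subunit left and small subunit right. Dots and bars give limma's estimate and 95% interval from all 6 arrays, and crosses the estimate without control replicate 1. Only the interval of Rpl36 does not reach 0, before correction.

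The leading large subunit genes lay on both sides. Rpl36, a protein of the large subunit, had log2 intensities of 7.57, 6.90 and 6.60 in tea replicates 1 to 3 and of 7.75, 7.45 and 8.39 in control replicates 1 to 3. Tea replicate 1 lay above control replicate 2, so the groups overlapped. The log2 fold change was -0.84 ± 0.37 (SE, limma, adjusted p = 0.949). Rpl10, which is needed for joining the subunits, read 9.13, 9.03 and 9.27 with tea and 9.79, 9.25 and 10.25 with water. Its difference was -0.62 ± 0.33, and -0.38 without control replicate 3, the highest array. Rpl10a, part of a mobile stalk at the site where transfer RNA leaves, read 8.97, 9.19 and 9.49 with tea and 9.65, 9.41 and 10.33 with water. The groups overlapped there too, and the difference of -0.58 ± 0.34 became -0.31 without control replicate 3.

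Rpl3 and Rpl22 had higher means with tea. Rpl3 lies next to the peptidyl transferase centre. Its log2 intensities were 11.96, 11.62 and 11.50 with tea and 10.04, 11.51 and 11.35 with water. Control replicate 1 was the low array, and the difference of 0.72 ± 0.41 became 0.26 without it. Rpl22, an RNA-binding protein that can be lost without stopping translation in mouse, read 9.15, 6.96 and 7.04 with tea and 5.65, 6.76 and 7.49 with water. Tea replicate 1 stood more than 2 log2 units above each other tea array. The Rpl22 difference of 1.09 ± 0.62 became 0.37 without tea replicate 1 and 0.60 without control replicate 1.

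In the small subunit, Rps26 was among the genes with the smallest p. Rps26, which lies where the messenger RNA leaves the small subunit, had log2 intensities of 12.14, 12.37 and 11.88 with tea and 12.58, 12.53 and 13.33 with water. The groups did not overlap, and control replicate 3 was the highest array. The log2 fold change was -0.68 ± 0.33 (SE, limma, adjusted p = 0.949). Rps27a, made as a fusion with ubiquitin, read 14.02, 14.20 and 14.22 with tea and 14.40, 14.49 and 14.89 with water. Its groups did not overlap either, and the difference was -0.45 ± 0.29.

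Rpsa, also known as a laminin receptor, read 11.13, 11.07 and 10.98 with tea and 9.62, 10.67 and 11.00 with water. Its difference of 0.63 ± 0.38 was 0.22 without control replicate 1, the lowest array. Rps14, whose loss of 1 copy underlies an anaemia in human, read 6.30, 6.76 and 6.22 with tea and 7.37, 6.47 and 6.82 with water. These values lay around 6.47, the median mean log2 level of the whole array, and the difference of -0.46 ± 0.34, or -0.22 without control replicate 1, is uncertain in size.

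**Figure D2:**
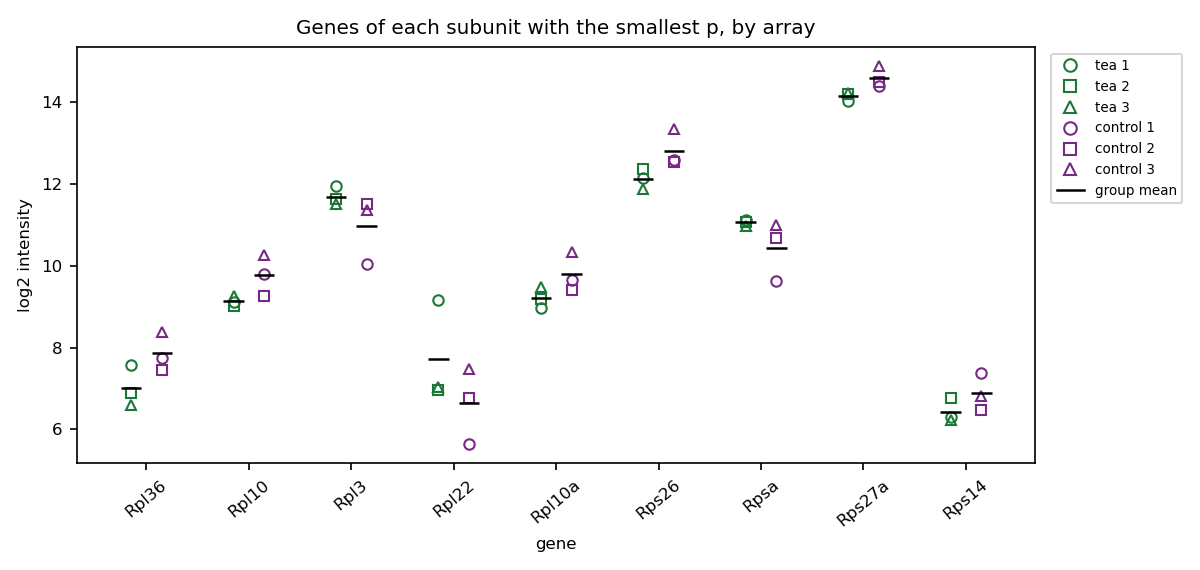
Log2 intensity (y axis) of 9 genes with the smallest unadjusted p in their subunit (x axis), 5 of the large and 4 of the small, with 1 symbol per array and a bar at each group mean. The groups are apart for Rps26 and Rps27a, and control replicate 1 is the low array for Rpl3, Rpl22 and Rpsa.

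Proteins of the acidic stalk, which recruits the elongation factors, had slightly lower means with tea. Rplp1 read 10.52, 10.45 and 10.47 with tea and 10.71, 10.56 and 11.31 with water. The groups did not overlap, and the difference was -0.38 ± 0.31, or -0.16 without control replicate 3. Rplp0 and Rplp2 differed by -0.18 ± 0.31 and -0.11 ± 0.32, and for both the groups overlapped. None of the 3 passed the test. Without control replicate 1 the Rplp2 difference was 0.034.

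None of the members with known roles outside or at the edge of translation passed the test. Rpl5 and Rpl11, which bind the p53 regulator Mdm2 when ribosome assembly is disturbed, differed by -0.042 ± 0.32 and -0.21 ± 0.32. Rps6, the substrate of the S6 kinases, read 13.21, 13.02 and 13.03 with tea and 12.70, 13.14 and 13.39 with water, a difference of 0.0071 ± 0.31. Tea values lay inside the range of the controls. Rps3, at the entry of the messenger RNA channel, differed by -0.31 ± 0.44, or by -0.78 without control replicate 1 and 0.11 without control replicate 3. Rps19 and Rps24, mutated in a congenital anaemia in human, differed by -0.24 ± 0.31 and 0.064 ± 0.42. Rpl38, which in mouse affects translation of Hox messages, differed by -0.47 ± 0.31. Rpl13a, Rpl23 and Rpl30 of the large subunit differed by 0.13 ± 0.29, 0.018 ± 0.30 and 0.54 ± 0.35, the last being 0.30 without control replicate 1. The fixed set also named Rps27l, Rpl7a, Rpl22l1 and Rpl26, which were not analysed here.

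For 9 of the 66 members, 13.6%, every tea value lay on one side of every control value, against 10.4% of all probes. The 8 lower ones included Rpl24, Rpl18, Rplp1 and Rpl17 of the large subunit and Rps26, Rps27a and Rps21 of the small, and made up 12.1% of the members against 5.54% of all probes. The 1 higher gene, against 4.87% of all probes, was Rpl21, at 12.68, 12.72 and 12.59 with tea and 11.60, 12.26 and 12.51 with water. Its difference was 0.54 ± 0.32, and 0.28 without control replicate 1, its lowest array. With 3 arrays against 3, an exact two-sided permutation test of a single gene cannot go below 0.1. Rpl17 had the smallest difference of the 8, with 15.02, 15.05 and 15.16 with tea and 15.17, 15.19 and 15.35 with water.

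The arrays of 2 controls stood at an extreme for many members. In control replicate 3 the level was above the mean of the other 5 arrays for 63 of the 66 members. It was the highest of the 6 arrays for 37 members, 56.1%, against 16.4% of all probes and 26.6% of the 2680 probes with a mean log2 level over 10, a group added after seeing the data. It was the lowest array for 0 members, against 16.0% of all probes. The median deviation from each gene's own mean was 0.36 in control replicate 3, and between -0.12 and 0.057 in the other 5 arrays. It was 0.31 in the large subunit and 0.45 in the small subunit, and -0.028 over all probes.

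**Figure D3:**
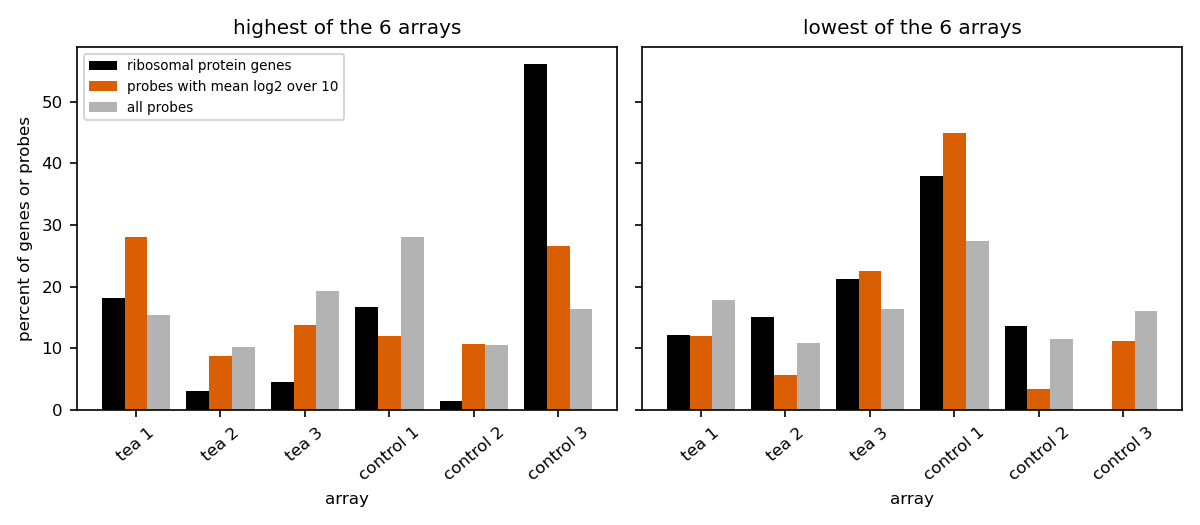
Percent of genes or probes (y axis) for which each array (x axis) was the highest, left, or the lowest, right, of the 6. Black bars are the 66 ribosomal protein genes, orange bars the 2680 probes with a mean log2 level over 10 and grey bars all 26419 probes. Control replicate 3 was highest for 56.1% of the members and lowest for none of the 66.

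Control replicate 1 split the members. It was the lowest array for 25 members (37.9%, against 27.4% of all probes and 45.0% of those with a mean over 10) and the highest for 11 (16.7%, against 28.1% of all probes and 12.0% of those with a mean over 10). For 10 members it lay over 1 log2 unit below each other array, which is 15.2% against 5.16% of all probes and 11.4% of those with a mean over 10. These 10, singled out after their values were seen, were Rpl13, Rpl39, Rpl22, Rpl27, Rpl3 and Rpl4 of the large subunit and Rps23, Rps3a, Rps27 and Rpsa of the small. This array also stood apart over all probes, with a Pearson correlation of 0.884 to 0.899 with the others, against 0.945 to 0.972 among the other 5.

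Rps23, which lies at the decoding centre, showed the widest gap. Its log2 intensities were 10.73, 10.79 and 10.31 with tea and 7.41, 10.80 and 11.03 with water. Control replicate 1 was 3.33 below the mean of the other 5 arrays, which ran from 10.31 to 11.03. Rps3a, a neighbour of the messenger RNA exit site, read 11.99, 11.95 and 12.02 with tea and 9.28, 11.99 and 12.35 with water. Rpl13 read 12.76, 12.74 and 12.92 with tea and 10.30, 12.94 and 12.86 with water. Rpl39, a small protein lining the peptide exit tunnel, read 9.80, 9.54 and 8.69 with tea and 7.03, 9.15 and 9.68 with water. The differences of these 4 genes were 0.86, 0.79, 0.78 and 0.73 with all arrays, and -0.31, -0.18, -0.09 and -0.071 without control replicate 1.

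Rps27 read 7.86, 7.50 and 7.38 with tea and 5.65, 8.41 and 9.02 with water. Its level in control replicate 1 was close to the random control probe of that array, at 5.40, as was that of Rpl22, so the size of both gaps is uncertain. The Rps27 difference went from -0.12 ± 0.71 to -1.14 without control replicate 1, which had the smallest p of the members (0.0036, limma adjusted p = 0.640). The same array was high for other small subunit genes: Rps18 stood 0.88 and Rps10 and Rps14 each 0.86 above the mean of the other 5. The low level was therefore not shared by all members.

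**Figure D4:**
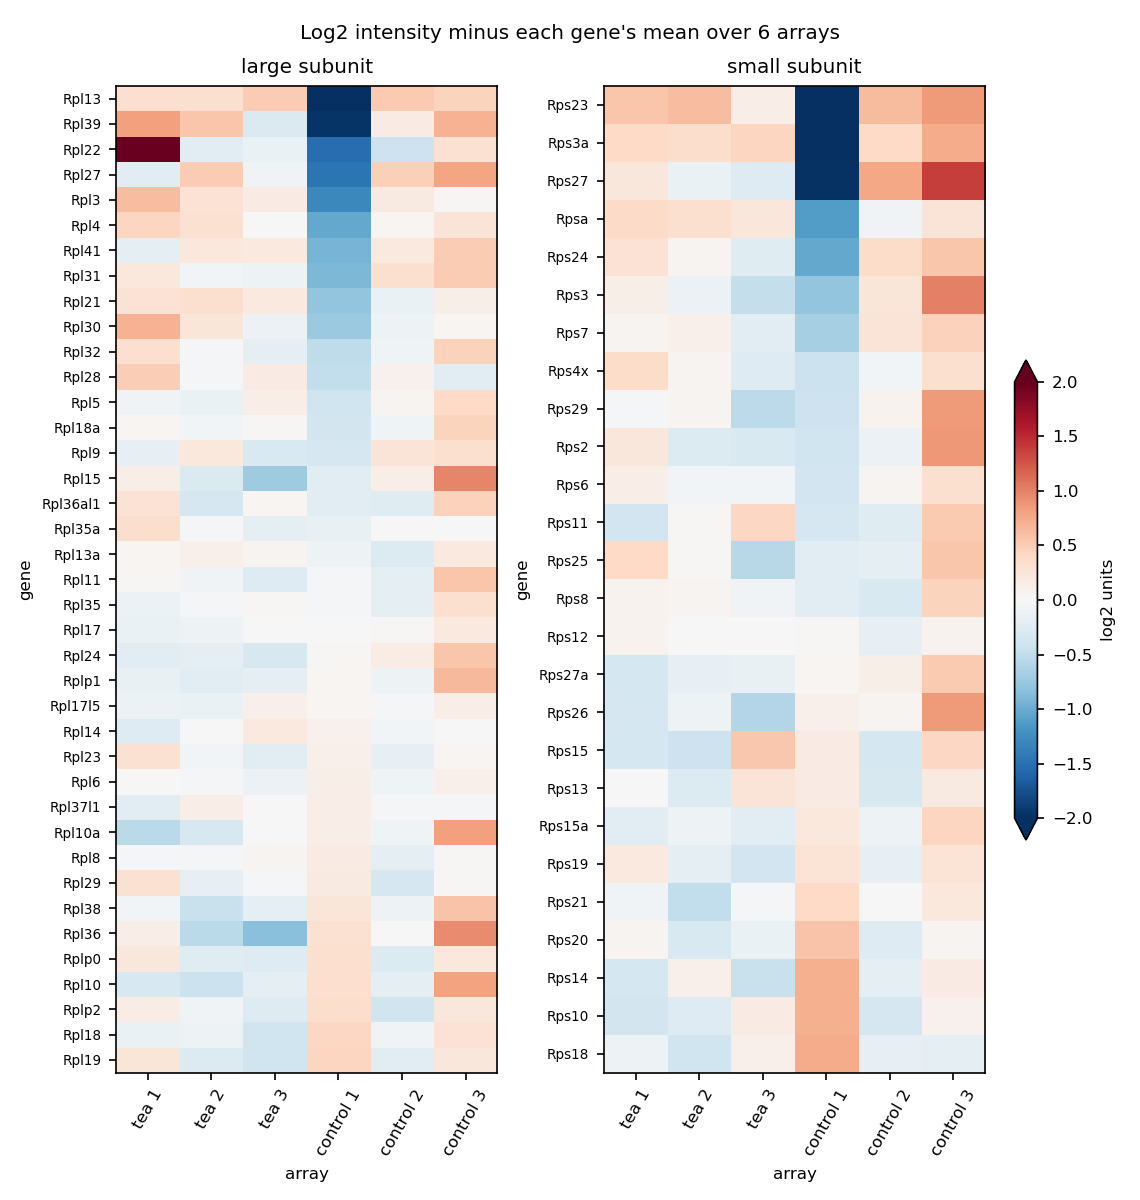
Log2 intensity minus each gene's mean over the 6 arrays (colour, in log2 units, saturated beyond 2 either way) for 65 ribosomal protein genes (rows, ordered by control replicate 1) and arrays (columns). Control replicate 1 runs from deep blue at Rps23 and Rpl13 to red at Rps18, and control replicate 3 is red for most genes.

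Without control replicate 1, 0 members passed, against 6 of all probes (0.0227%), and the smallest adjusted p was 0.640. The members were higher with tea in 17 cases and lower in 49, with a median of -0.16, against 50.7% of all probes higher, 49.3% lower and a median of 0.0065. The large subunit had 13 higher and 26 lower with a median of -0.11, and the small subunit 4 higher and 23 lower with a median of -0.22. At an unadjusted p under 0.05, 6 members differed, 9.09% against 5.63% of all probes. All 6 were lower, which 3.32% of all probes were, and they included Rps27, Rpl36, Rps26, Rpl15 and Rps3. Groups did not overlap and were lower with tea for 17 members, 25.8%, against 11.1% of all probes, and were higher for 1, against 9.96%. Probes with a mean over 10 were also more often lower in these 5 arrays, 1552 of 2680, with a median of -0.064. Among these 2680, groups did not overlap and were lower for 477 and higher for 177. With all 6 arrays 1593 of those 2680 were higher.

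Without control replicate 3 the direction of the group turned. Then 39 members were higher and 27 lower, against 49.8% of all probes higher and 50.2% lower, with medians of 0.064 over all members, 0.043 in the large subunit and 0.10 in the small subunit. Probes with a mean over 10 were also more often higher in these 5 arrays, 1674 of 2680, with a median of 0.12, so the turn was not particular to the members. Again 0 members passed (0% of all probes), and 2 had an unadjusted p under 0.05, against 5.38% of all probes. Groups did not overlap for 8 lower and 6 higher members, 21.2% of the 66, against 19.7% of all probes, of which 11% were lower and 8.66% higher. Of the 66 members, 31 kept their sign when any 1 of the 6 arrays was left out. Among the genes with the smallest p, Rps26 stayed between -0.82 and -0.42 and Rpl36 between -1.11 and -0.58.

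**Figure D5:**
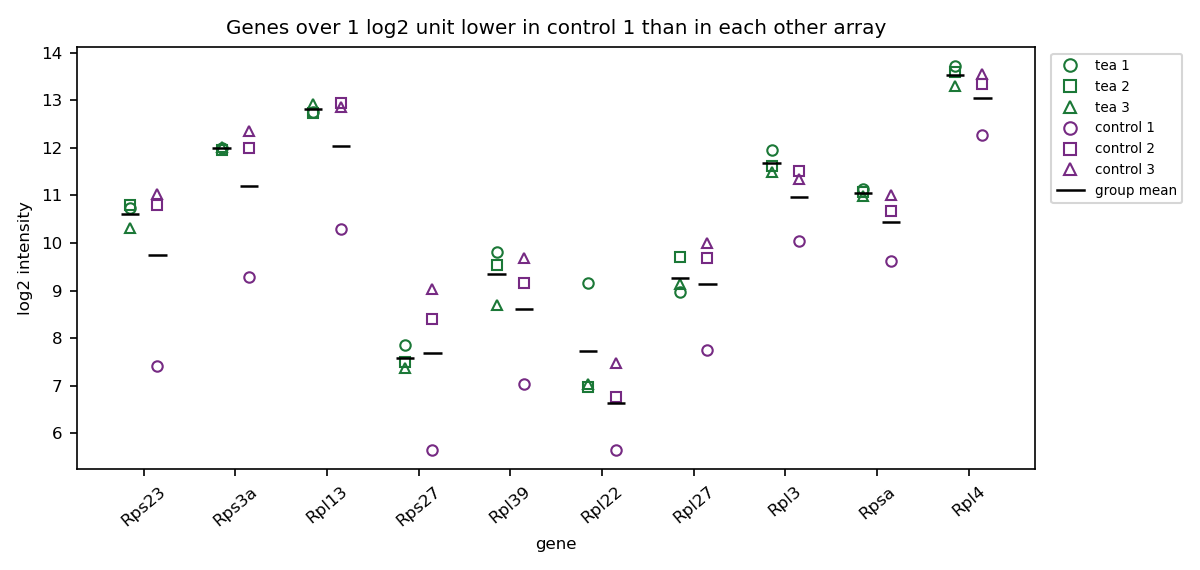
Log2 intensity (y axis) by array of the 10 genes (x axis) for which control replicate 1, the open purple circle, lay over 1 log2 unit below each other array, with a bar at each group mean. For Rps3a and Rpl13 the other 5 arrays lie close together.

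Members with and without the tract at the annotated start were set side by side. The 21 with it had a median log2 fold change of -0.15 and the 32 without it -0.025, and without control replicate 1 these were -0.18 and -0.14. Control replicate 3 was the highest array for 11 of the 21 and 17 of the 32, so its high level was seen in both.

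A ribosomal protein under another symbol and genes that work with the ribosome gave the same result for the test. Fau, whose product carries a small subunit protein, read 10.85, 11.20 and 10.88 with tea and 11.70, 11.27 and 12.05 with water, without overlap and with a difference of -0.70 ± 0.32. Of 24 measured translation factors, 12 were higher and 12 lower with a median of 0.0075, and 0 passed. Without control replicate 1 these factors had 5 higher and 19 lower with a median of -0.20, and without control replicate 3 they had 17 higher and 7 lower with a median of 0.15. Eif3l had the smallest p among them, with -0.69 ± 0.30. A further list held transcripts known for such a tract or bound to ribosomes, 15 of them measured. It includes Fau and shares genes such as Eif3h with the translation factors, so these lists are not separate sets. The tract was not checked in these genes. Of the 15, 7 were higher and 8 lower, and 0 passed. Their median was -0.0075, or -0.20 without control replicate 1 and 0.074 without control replicate 3. Of 30 ribosome assembly genes, 17 were higher and 13 lower with a median of 0.16, or -0.19 without control replicate 1, and 0 passed. Imp4, part of the machinery that processes the small subunit's RNA, had the smallest p, with -0.87 ± 0.39, or -0.48 without control replicate 1, its highest array. For 8 of the 24 translation factors and 5 of the 30 assembly genes, control replicate 3 was the highest array. The same held for 6 of the 15 transcripts of the further list.

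The mTOR and S6 kinase list had 3 genes higher and 11 lower of 14 measured, with a median of -0.16, against 49.7% of all probes higher, and 0 passed. Without control replicate 1 the list again had 3 higher and 11 lower, with a median of -0.11. Without control replicate 3 it had 6 higher and 8 lower, with a median of -0.12, and that array was the highest for 3 of the 14. The kinase gene Rps6kb1 read 8.64, 8.86 and 8.09 with tea and 9.20, 8.77 and 8.42 with water, so the groups overlapped, and differed by -0.27 ± 0.34, or by -0.067 without control replicate 1. Pdcd4, an inhibitor of translation initiation that S6 kinase marks for decay, had the smallest p, with 0.67 ± 0.38, or 0.36 without control replicate 1, its lowest array. Of 7 genes of the p53 response, 4 were higher and 3 lower, and of 6 proliferation genes 2 were higher and 4 lower, with 0 passing in both. Without control replicate 1 these counts were 3 and 4, and 3 and 3. The p53 median was 0.39, or -0.16 without control replicate 1. The proliferation median was -0.25, or -0.11 without that array. The 24 mitochondrial ribosomal protein genes, added after seeing the data, had 13 higher and 11 lower and a median of 0.082, and control replicate 3 was the highest array for 3 of them. Without control replicate 1 they had 8 higher and 16 lower, with a median of -0.12. Of 29 proteasome subunits, also added, 12 were higher and 17 lower with a median of -0.069, and control replicate 3 was highest for 13. The proteasome median was -0.17 without control replicate 1, with 6 higher and 23 lower, and 0.045 without control replicate 3, with 20 higher and 9 lower.

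All 16 hepatocyte markers lay above the median of all probes on every array. Their median log2 fold change was -0.0040, and their median deviation in control replicate 3 was 0.13, with that array the highest for 7 of the 16. In that array the median deviation was 0.39 for 9 of 13 listed Kupffer cell and macrophage markers that were measured, 0.43 for 2 of 8 endothelial, 0.017 for 9 lymphocyte, 0.10 for 8 stellate cell, -0.052 for 6 cholangiocyte, -0.085 for 6 erythroid and platelet and -0.29 for 2 neutrophil markers. In control replicate 1 it was 0.020, -0.64, -0.14, -0.10, 0.31, -0.081 and 0.40 for the same lists in that order. No probe read 0. The summed intensity of the Kupffer cell list lay between 2713 and 5576 in tea and between 3651 and 6341 in control arrays, highest in control replicate 3. That of the hepatocyte list lay between 372143 and 407575 in tea and between 376987 and 423662 in control arrays, also highest in control replicate 3. The part of these cell types in the ribosomal protein values was not tested.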

How the data were processed

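Total RNA from rat liver was labelled with Cy3 and hybridised in a single colour by the NimbleGen procedure, per the labels' protocols. Each probe has 1 deposited intensity for each array, not on a log scale. The submitters' processing notes name RMA, with version and settings not given in the sources used here. This method makes arrays alike in distribution, so a change in total RNA would not show. The log2 of the deposited intensity was taken with no further scaling. The 6 array medians ran from 87.1 to 95.9. Tests covered 26419 probes, without the 1 random control row.

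Probes were named by unversioned transcript accession through a RefSeq table of GRCr8: 9740 had 1 symbol, 0 several and 16679 none. The highest-mean probe would stand for a gene, but each member had 1. Of 78 protein-coding symbols of the rule without a paralog suffix, 63 had a named probe, and the other 15 were not analysed here. The 3 with a suffix were Rpl36al1, Rpl37l1 and Rpl17l5.

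Groups followed the sample titles. The test of tea against control was two-sided, by lmFit and eBayes of limma 3.58.1 (R 4.3.3). P-values were adjusted by Benjamini-Hochberg over all probes, at 0.05. SE and 95% intervals are limma's. The procedure was tested on simulated data.

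Named members were the 5 with the smallest p in each subunit, a fixed set with known roles, and any past the threshold. The 3 smallest p of each related list were also taken, of which the text gives some. Single values of 1 member and 1 related gene are not reported here, and counts and medians include them. The members and lists were chosen with earlier results of these data known. Alternatives were another quantile normalization, median centring, a filter on the dimmest 25% of probes, array weights, a trended and robust eBayes, a replicate block, each array left out, the mean of a gene's probes, paralog-named members left out and an adjusted p under 0.1.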

Additional observations from a re-analysis of the deposited data

How the results depend on the processing

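Under all 15 alternatives 0 ribosomal protein genes passed the threshold. Without control replicate 3 the medians changed sign, to 0.064 over all members, 0.043 in the large subunit and 0.10 in the small subunit. Over the 6 omissions these medians ran from -0.16 to 0.064, from -0.11 to 0.043 and from -0.27 to 0.10, and the number of members higher with tea from 17 to 39. Another quantile normalization gave 20 members higher. Over all probes, 27 passed with array weights, and 0 to 6 with an array left out. Since tea and control samples share replicate numbers, a fit with the replicate block was run, and 0 of all probes and 0 members passed. Each number holds 1 tea and 1 control array, so the block leaves every difference as it was and the medians could not move. The deviations of same-numbered samples correlated at -0.22, 0.013 and -0.25. With 3 arrays a group, and control replicate 1 standing apart, these values cannot decide whether the numbers pair the samples.

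Of the 23 named members, 7 changed sign when an array was left out: Rpl23 ran from -0.13 to 0.14, Rps24 from -0.43 to 0.36, Rps6 from -0.18 to 0.17, Rpl5 from -0.25 to 0.15, Rplp2 from -0.35 to 0.034, Rpl11 from -0.36 to 0.020 and Rps3 from -0.78 to 0.11. With another quantile normalization Rpl23 was at -0.025 and Rps6 at -0.042. With array weights Rplp2 was at 0.089, Rps24 at -0.26 and Rps6 at -0.14. The cause was not tested. The mean of a gene's probes changed nothing for the members, since each had 1, and the filter on dim probes left out 0 of them. With 3 arrays a group, a 2-fold change was within the 95% interval of 35 members.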
